A study of Rhinolophus ferrumequinum with 8 samples.

Results

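The genes described here are 10 that govern the choice between glucose and fat as fuel: the pyruvate dehydrogenase kinases PDK1, PDK2, PDK3 and PDK4, the carnitine palmitoyltransferases CPT1A and CPT2, the acyl-CoA dehydrogenases ACADM and ACADVL, and the trifunctional protein subunits HADHA and HADHB. They were taken by gene name from an expression table of 19652 genes, in which each name stood once. All 10 were among the 13542 genes whose mean level was 1 or more and that were tested.

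Pyruvate dehydrogenase joins glycolysis to the citric acid cycle by turning pyruvate into acetyl-CoA inside mitochondria. The kinases phosphorylate the complex and switch it off, which spares glucose, and dedicated phosphatases switch it on again. Long-chain fatty acids reach the same acetyl-CoA pool through the carnitine shuttle and beta oxidation. In fasted and hibernating mammals, PDK4 is a classic marker of the shift towards fat in heart, muscle and liver. Spleen, a blood-filtering immune organ rich in macrophages, lymphocytes and red cells, has a smaller part in whole-body fuel use.

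RNA was sequenced from whole spleens of wild female greater horseshoe bats (Rhinolophus ferrumequinum), in 8 libraries from 4 states with 2 biological replicates each. Summer active bats were taken in July. Torpor bats, in the cold phase of hibernation when metabolism is low, were taken in November, as were arousal bats at 2 h after capture and winter active bats at 26 h after capture. Every summer sample was thus from July and every other sample from November, so season and state cannot be told apart in comparisons with summer, and time in captivity went with state in November. No ages are given in the labels.

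Values are levels in rescaled TPM, a per-length unit that allows genes to be compared within a library, and the depth behind them is unknown because the table holds no read counts. Differences are on the log2(value + 1) scale with the standard error (SE), which understates the change of low genes. Adjusted p-values are limma's, corrected over all 13542 tested genes, and a value under 0.05 was called. Replicates correlated at r = 0.915 in summer active, 0.959 in torpor, 0.937 in arousal and 0.959 in winter active, over tested genes. Macrophage and B-cell transcripts were present in every library, although 1 gene of each cannot establish the labelled organ. C1QA, a complement chain of splenic macrophages, was at 1488 to 7835 and CD79B, a B-cell receptor chain, at 173 to 1074. Some libraries also carried transcripts typical of fat, liver and pancreas, whose summed levels are given below for every state.

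PDK4, the isoform that fasting induces in other mammals (NCBI gene 117012192), was the gene of the 10 that differed most between states. It stood at 32.5 and 49.7 in the summer active libraries, 81.7 and 67.9 in torpor, 239 and 157 in arousal and 103 and 119 in winter active. No library of one state overlapped with any of another, and the order ran arousal, winter active, torpor, summer active from high to low. Of the 13542 tested genes, 106 (0.783%) were separated in that same order and 510 (3.77%) were fully separated in any order. PDK4 was read out after earlier results of these data were known, so this pattern is a description.

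In arousal against summer active, PDK4 averaged 198 ± 58.5 in arousal and 41.1 ± 12.2 in summer active (SD, n = 2 each), a log2 difference of 2.24 (SE 0.29, limma adjusted p = 0.0136). It was the 1 member of the 10 called in that comparison, where 5.52% of all tested genes were called. The call held in 14 of 17 alternative settings, column scaling included. With each column set to a total of 1000000, the median of all genes shifted to 0.76 and 45.0% of all genes were called, 5833 higher and 266 lower, beside 323 higher and 425 lower on the deposited scale. PDK4 then differed by 3.00, which is 2.24 above that median, and 8 of the 10 genes were called (all but PDK1 and PDK2). On the deposited scale, the PDK4 call was lost when arousal 1 was left out (difference 1.94, limma adjusted p = 0.0737), when arousal 2 was left out (2.55, limma adjusted p = 0.0547) and in a fit of the 2 states alone (2.24, limma adjusted p = 0.103).

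The smaller steps in PDK4 did not pass the threshold. The log2 difference was 0.87 (SE 0.29, limma adjusted p = 0.213) in torpor against summer active, 1.37 (SE 0.29, limma adjusted p = 0.143) in arousal against torpor, 0.57 (SE 0.29, limma adjusted p = 0.43) in winter active against torpor and 1.44 (SE 0.29, limma adjusted p = 0.0826) in winter active against summer active. With columns set to totals of 1000000, arousal against torpor (1.75, limma adjusted p = 0.0456, beside a median of 0.45 over all genes and 3.29% of them called) and winter active against summer active (2.00, limma adjusted p = 0.0349, beside 0.55 and 5.75%) passed. In arousal against torpor that scaling called 441 genes higher and 4 lower, where the deposited scale called 0, and 0.0456 was the smallest adjusted p. The winter active bats, a day later than the arousal bats after capture, stood at 111 ± 11.2 against 198 ± 58.5 in arousal (difference -0.80, limma adjusted p = 0.825). These comparisons share libraries, so they are not independent of each other.

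**Figure D1:**
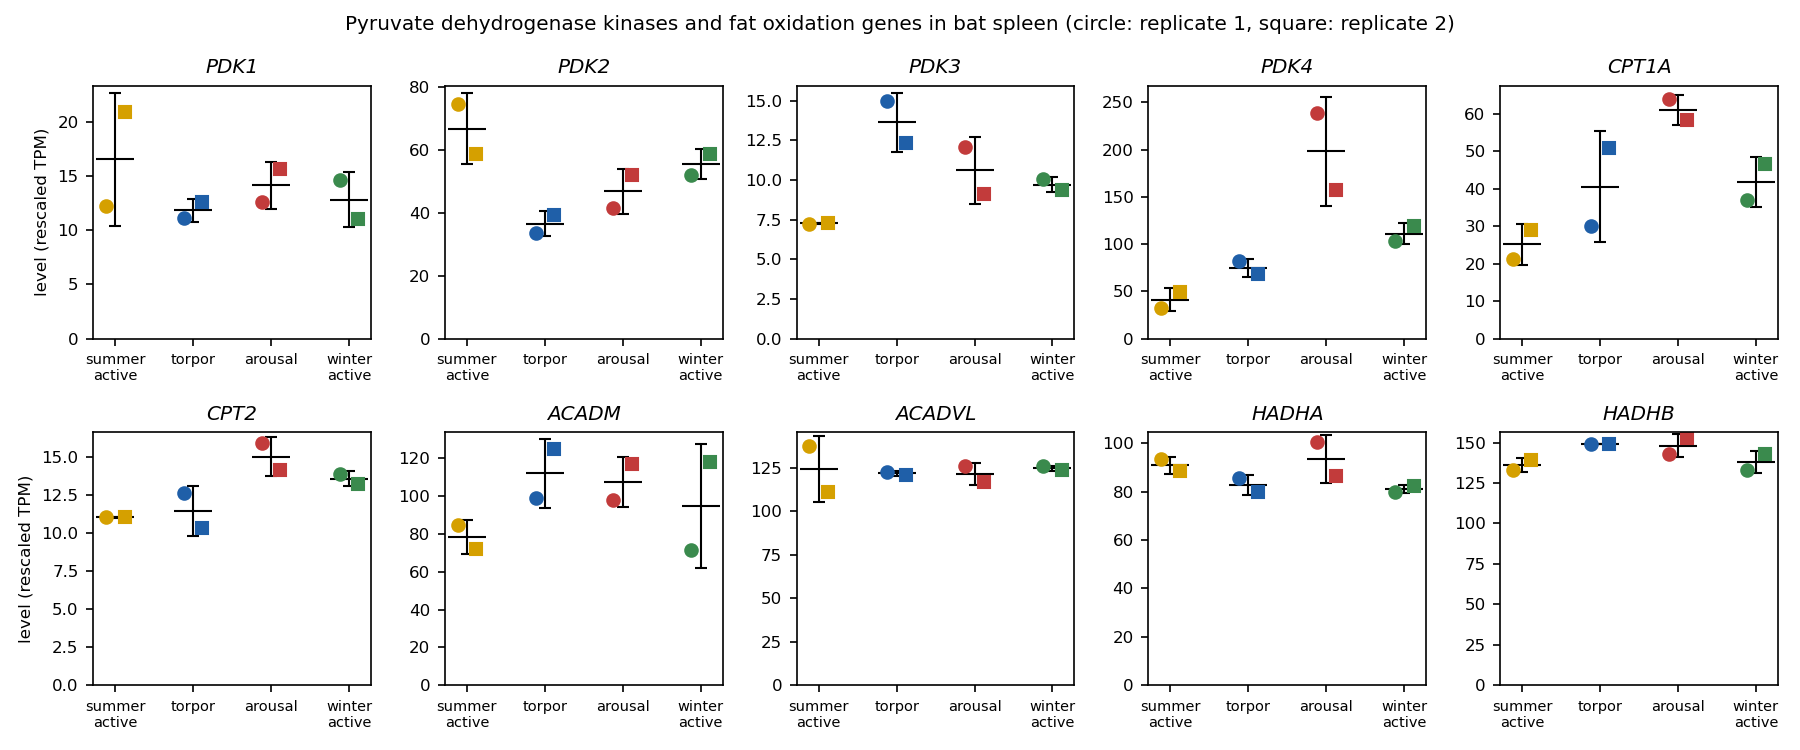
Level of each of the 10 genes in rescaled TPM (vertical axes, each from 0) in the 4 states (horizontal axes), with replicate 1 as a circle, replicate 2 as a square, and the mean ± SD of the 2 libraries in black. PDK4 runs from 32.5 to 239 with no overlap between states, while ACADVL stays between 111 and 138.

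PDK2, the most widely expressed isoform (NCBI gene 117013683), had a different order from PDK4. Its levels were 74.6 and 58.6 in summer active, 33.6 and 39.3 in torpor, 41.6 and 51.8 in arousal and 52.0 and 58.7 in winter active. Both torpor libraries lay below all 6 others, and only winter active and summer active overlapped among neighbours in the order. For this and the separations of libraries given below, the share of all tested genes separated alike was not counted. Torpor stood at 36.4 ± 4.06 against 66.6 ± 11.3 in summer active, a log2 difference of -0.85 (SE 0.21, limma adjusted p = 0.146), which did not pass. In winter active against torpor it was 0.59 (SE 0.21, limma adjusted p = 0.335).

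PDK3, known from human enzymes as the kinase least restrained by pyruvate (NCBI gene 117024149), was highest in torpor. Its levels were 7.24 and 7.29 in summer active, 15.0 and 12.3 in torpor, 12.1 and 9.11 in arousal and 10.03 and 9.36 in winter active. Both summer libraries lay below all 6 November libraries. The log2 difference in torpor against summer active was 0.82 (SE 0.23, limma adjusted p = 0.167), and in arousal against summer active 0.48 (SE 0.23, limma adjusted p = 0.213). Neither passed the threshold.

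PDK1, a target of the hypoxia response in other mammals (NCBI gene 117026133), showed no separation of states. It stood at 12.2 and 20.9 in summer active, 11.1 and 12.6 in torpor, 12.6 and 15.7 in arousal and 14.6 and 11.0 in winter active. Neighbouring states overlapped throughout, and its log2 differences lay between -0.41 (torpor against summer active) and 0.23 (arousal against torpor), with an SE of 0.30.

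Since the unit is per length, the isoforms can be set against each other within a library. PDK2 was the most abundant kinase transcript in both summer active libraries, with 59.0% and 43.0% of the summed PDK level, and PDK4 made up 25.7% and 36.4%. PDK4 was the most abundant in all 6 November libraries, with 57.8% and 51.4% in torpor, 78.3% and 67.2% in arousal and 57.3% and 60.1% in winter active. The summed level was 127 and 136 in summer active and 141 and 132 in torpor. Those states thus differed in make-up, at about the same total on the deposited scale. That likeness of totals depends on the scaling, as whole columns summed to 1276851 and 1331820 in summer active and 986814 and 998271 in torpor. The summed PDK level was 306 and 233 in arousal and 179.7 and 198 in winter active, above every summer active and torpor library. With 2 libraries a state, no test was run on these shares.

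**Figure D2:**
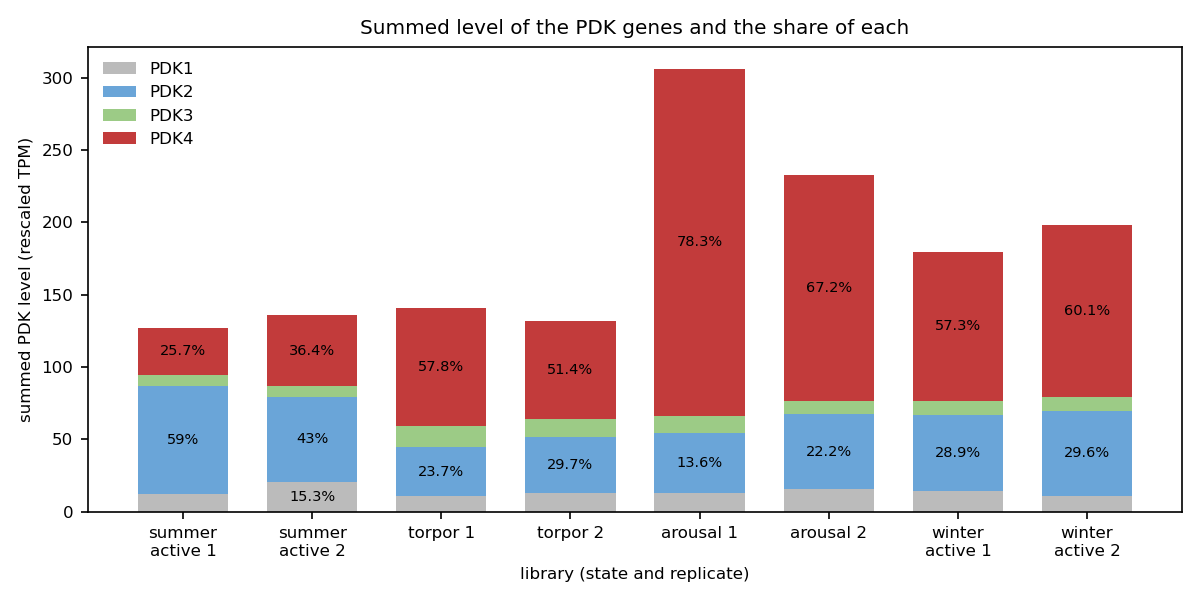
Summed level of PDK1, PDK2, PDK3 and PDK4 in rescaled TPM (vertical axis) in each library (horizontal axis), with each bar split by gene and larger shares printed in percent. The PDK4 part is 25.7% and 36.4% in summer active and 51.4% to 78.3% in the November libraries.

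CPT1A, which makes the acylcarnitines that enter mitochondria and is the main control point of fat oxidation in liver and immune cells (NCBI gene 117030155), followed PDK4 in the order of its means. It stood at 21.2 and 29.0 in summer active, 30.0 and 50.9 in torpor, 63.9 and 58.2 in arousal and 37.0 and 46.5 in winter active. Both arousal libraries lay above all others and both summer active libraries below all others, while torpor and winter active overlapped. In arousal against summer active the levels were 61.0 ± 3.97 and 25.1 ± 5.50, and the log2 difference of 1.26 (SE 0.29) lay just outside the threshold (limma adjusted p = 0.0524). It passed in 4 of 17 alternatives, with limma adjusted p-values from 0.00783 to 0.185 over all 17, and in none of the 8 fits without a library.

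The other CPT1A differences were smaller and did not pass. They were 0.64 in torpor against summer active, 0.63 in arousal against torpor and 0.72 in winter active against summer active (SE 0.29 each; limma adjusted p = 0.343, 0.28 and 0.318). In winter active against torpor the difference was 0.08 (limma adjusted p = 0.923), and in winter active against arousal -0.54 (limma adjusted p = 0.825). The 2 torpor libraries differed from each other by as much as the states did, and without torpor 1 the difference was 1.01 in torpor against summer active and 0.25 in arousal against torpor. CPT1B, the muscle form, was at 0.159 to 1.12 and CPT1C, the brain form, at 0.363 to 1.01 over the 8 libraries, both under the minimum mean for testing.

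CPT2, which turns acylcarnitines back into acyl-CoA on the matrix side (NCBI gene 117026851), varied little. It stood at 11.04 and 11.01 in the summer active libraries, 12.6 and 10.3 in torpor, 15.9 and 14.1 in arousal and 13.9 and 13.2 in winter active. Arousal lay highest, and its difference from summer active was 0.41 (SE 0.20, limma adjusted p = 0.228). The ratio of CPT1A to CPT2 was 1.92 and 2.63 in summer active and 4.01 and 4.13 in arousal, with 2.39 and 4.94 in torpor and 2.67 and 3.52 in winter active between or across them.

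ACADM, the dehydrogenase for medium-chain acyl-CoA (NCBI gene 117027017), stood at 84.6 and 71.8 in summer active, 99.2 and 125 in torpor, 98.1 and 117 in arousal and 71.5 and 118 in winter active. All 4 torpor and arousal libraries lay above both summer libraries, but the winter active pair spanned nearly the whole range. The largest log2 difference was 0.51 (SE 0.27, limma adjusted p = 0.412), in torpor against summer active.

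The enzymes for long-chain acyl-CoA were the steadiest of the 10. ACADVL, the first dehydrogenase for these chains (NCBI gene 117012846), ran from 111 to 138, both extremes being summer active libraries, and its 6 log2 differences lay between -0.03 and 0.04 (SE 0.18). HADHB, which carries the thiolase activity of the trifunctional protein (NCBI gene 117033225), ran from 133 to 153. HADHA, which carries its hydratase and dehydrogenase activities (NCBI gene 117033224), ran from 79.8 to 100.3. None of their differences exceeded 0.20 in size on the log2 scale, and the SE was 0.16 to 0.18. With columns set to totals of 1000000, ACADVL, HADHA and HADHB were called higher in arousal than in summer active (0.74, 0.80 and 0.89), close to the 0.76 by which the median of all genes moved. HADHA and HADHB are neighbours in the annotated genome, and their ratio stayed within 0.534 to 0.703.

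Summed over ACADM, ACADVL, HADHA and HADHB, the level was 449 and 410.2 in summer active, 457 and 475 in torpor, 468 and 473 in arousal and 410.5 and 468 in winter active. Taken singly, ACADM ran from 71.5 to 125, ACADVL from 111 to 138, HADHA from 79.8 to 100.3 and HADHB from 133 to 153. Each of these matrix and inner membrane enzymes spanned a narrower range across libraries than PDK4, whose highest library stood at 239 against a lowest of 32.5.

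**Figure D3:**
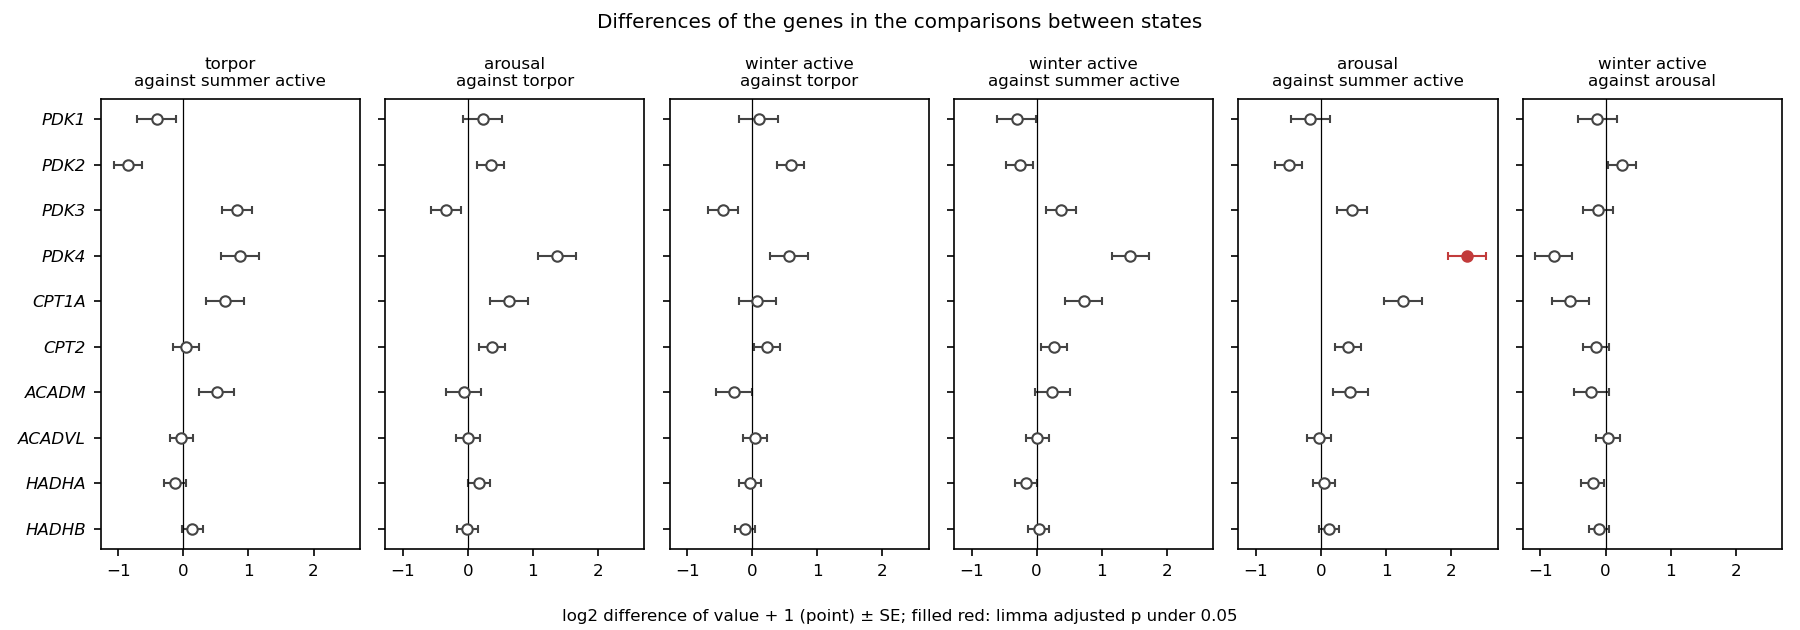
Log2 difference of value + 1 (horizontal axes) for each gene (rows) in the 6 comparisons between states (panels, first state minus second), as points with ± SE. PDK4 in arousal against summer active, at 2.24, is the filled red point and the 1 difference called by limma.

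The number of the 10 genes past each threshold is given with the share over all genes. In torpor against summer active limma called 0 of 10 at an adjusted p under 0.05 (0.561% of all tested genes) and 3 of 10 had an unadjusted p under 0.05 (16.0%): PDK2, PDK3 and PDK4. In arousal against torpor 0 were called (0.0% of all genes) and 1, PDK4, had an unadjusted p under 0.05 (19.7%). For winter active against torpor, 0 were called (0.0%) and PDK2 was the 1 gene under 0.05 unadjusted (13.2%). In winter active against summer active 0 were called (1.03%) and PDK4 and CPT1A were the 2 under 0.05 unadjusted (14.8%). In arousal against summer active PDK4, CPT1A and PDK2 were the 3 under 0.05 unadjusted (28.9%). Finally, in winter active against arousal 0 were called (0.0%) and PDK4 was the 1 under 0.05 unadjusted (5.45%).

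The median log2 difference of the 10 was 0.09 in torpor against summer active and 0.27 in arousal against summer active, beside -0.055 and 0.083 over all tested genes. In arousal against torpor it was 0.20 beside 0.109, in winter active against arousal -0.13 beside -0.037, in winter active against torpor 0.06 beside 0.079 and in winter active against summer active 0.13 beside 0.046. PDK2 stood at 46.7 ± 7.23 in arousal and 66.6 ± 11.3 in summer active (difference -0.50, limma adjusted p = 0.172, not called), a difference that turned to 0.26 with columns set to totals of 1000000. Relative to the median of all genes it was then -0.50, beside 2.24 for PDK4 and 1.25 for CPT1A.

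The libraries also differed in the transcripts of other cells. Red cell precursor markers (10 of 11 in the table) summed to 13.7 and 12.9 in arousal, against 5980.3 and 8921 in summer active, and B-cell markers (8 of 8) to 840.1 and 571 against 2267 and 2908. In whole spleen, fewer cells of a type and less RNA per cell cannot be told apart. The part of these shifts in the differences of PDK4 and CPT1A was not tested.

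Adipocytes express PDK4 and CPT1A, and their markers also differed between states. The 13 adipocyte markers in the table, of 14 listed, summed to 215 and 154 in summer active, 297 and 262 in torpor, 235 and 637 in arousal and 234 and 518 in winter active, and none of them was at 0. ADIPOQ, their defining hormone, was at 1.04 and 0.327 in summer active, 17.9 and 15.2 in torpor, 8.61 and 75.4 in arousal and 12.4 and 81.4 in winter active. PLIN1, the coat protein of fat cell lipid droplets, was at 7.13 and 4.68 in torpor and 5.33 and 25.5 in winter active. In arousal it was at 6.28 and 18.8, against 0.308 and 0.0584 in summer active (log2 difference 3.35, SE 0.71, limma adjusted p = 0.0442). PLIN1 was the 1 of 12 tested adipocyte markers called there, beside 5.52% of all tested genes. Of the 12 markers, 11 lay higher, beside 54.9% of all tested genes, with a median of 1.60 beside 0.083. The part of fat cell transcripts in the PDK4 and CPT1A differences was not tested.

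Liver and pancreas transcripts varied more between libraries of a state. Hepatocyte markers (14 of 15 in the table) summed to 3301 and 63.6 in summer active, 1130.1 and 115 in torpor, 1414 and 22886 in arousal and 90.5 and 49.8 in winter active. TTR was at 0 in summer active 2 and FGA in winter active 2. All 14 lay higher in arousal than in summer active, with a median of 3.11 beside 0.083 over all tested genes. There 54.9% of all tested genes lay higher and 5.52% were called, and none of the 14 passed. Pancreatic acinar markers (7 of 11 in the table) summed to 23.2 and 19.4 in summer active, 1509 and 369 in torpor, 46.96 and 844 in arousal and 31.1 and 124 in winter active. All 7 lay higher in torpor than in summer active (median 4.45), as did 45.1% of all tested genes (median -0.055). All 7 also lay higher in arousal than in summer active (median 3.08). In torpor against summer active 0.561% of all tested genes were called, and none of the 7 passed in either comparison. The part of these liver and pancreas transcripts in the results was not tested.

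UCP1, the defining gene of brown fat, was at 6.66 in arousal 1 and at most 0.494 in the other 7 libraries, being listed at 0 in arousal 2 and summer active 2. CIDEA, a lipid droplet gene of brown fat, did not follow it, at 17.6 in arousal 1, 95.4 in arousal 2 and 91.6 in winter active 2. Striated muscle, where PDK4 is abundant, has 7 of its 10 listed markers in the table. They summed to 38.1 to 56.2 in summer active, 48.4 to 61.6 in torpor, 40.7 to 48.6 in arousal and 27.8 to 40.5 in winter active. Most of that was TNNI2, a troponin of fast muscle, at 21.5 to 50.2, while ACTA1 ran from 0.0612 to 2.97 and CKM from 0.118 to 2.55, and MYH7 was at 0 in 4 libraries.

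**Figure D4:**
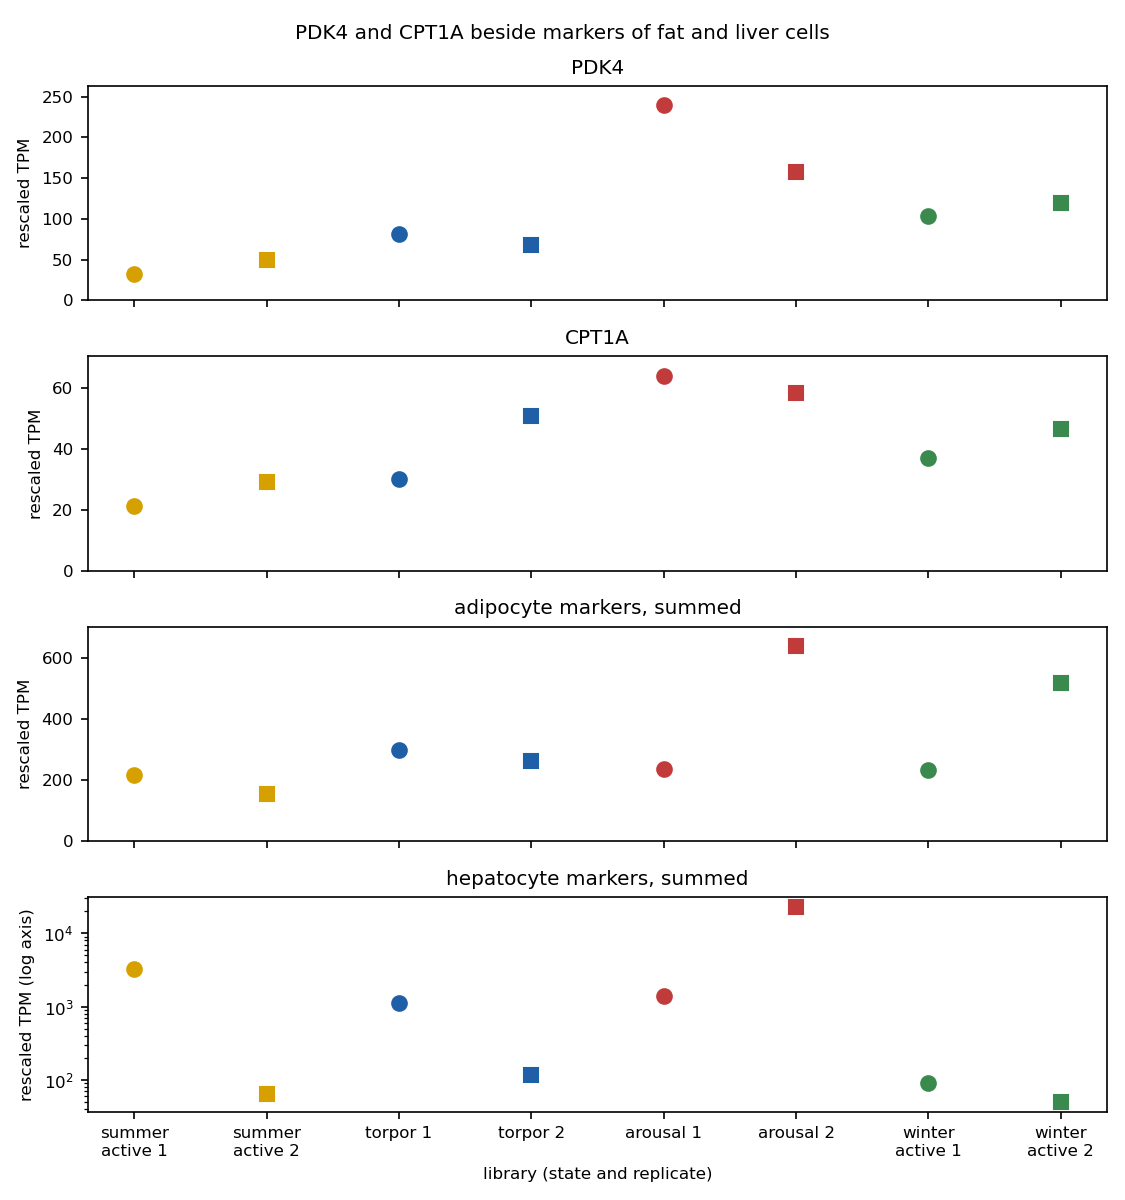
PDK4, CPT1A, the summed adipocyte markers and the summed hepatocyte markers in rescaled TPM (vertical axes, the lowest panel on a log axis) in each library (horizontal axis), coloured by state with replicate 1 as a circle and replicate 2 as a square. Adipocyte markers are highest in arousal 2 at 637 and PDK4 in arousal 1 at 239.

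The enzyme complex that the kinases act on, its phosphatases and the pyruvate carrier did not pass in any comparison (0 of 10 genes tested). Limma called 5.52% of all tested genes in arousal against summer active and at most 1.03% in any other comparison. All 10 genes of this list lay higher in arousal than in summer active under every scaling tried. On the deposited scale their median was 0.37 beside 0.083 over all genes, of which 54.9% lay higher. Individual genes came near the threshold. PDHB, the E1 beta subunit (NCBI gene 117036892), was at 102 and 98.7 in torpor bats, against 55.0 and 49.3 in summer active (log2 difference 0.93, SE 0.16, limma adjusted p = 0.070). Arousal at 71.5 and 74.9 and winter active at 71.0 and 72.1 lay between, so torpor stood alone at the top.

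PDP2, a phosphatase that reactivates the complex and so opposes the kinases (NCBI gene 117035005), was lowest in torpor. It stood at 5.69 and 6.24 in summer active, 2.36 and 1.49 in torpor, 7.62 and 10.1 in arousal and 7.03 and 8.92 in winter active. Both torpor libraries lay below all others, and the share of all tested genes separated in this way was not counted. The difference in arousal against torpor was 1.76 (SE 0.27, limma adjusted p = 0.142) and in winter active against torpor 1.63 (SE 0.27, limma adjusted p = 0.271).

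Of 90 other genes of glucose and fat use that were tested, limma called 1 in torpor against summer active, beside 0.561% of all tested genes. It called 0 of the 90 in winter active against summer active (1.03% of all tested genes) and in arousal against summer active (5.52%). In the remaining comparisons it called 0 of the 90 and 0 of all tested genes. The gene called in torpor against summer active was MGLL (NCBI gene 117011637), which fell. MGLL is the monoacylglycerol lipase that completes the release of fatty acids from stored fat. It stood at 7.12 and 11.6 in torpor bats, against 43.4 and 30.4 in summer active (log2 difference -1.89, SE 0.29, limma adjusted p = 0.0472), and at 22.2 and 28.5 in arousal and 33.5 in both winter active libraries. The call sat at the edge of the threshold and held in 3 of 17 alternatives, with limma adjusted p-values from 0.0359 to 0.189, and it was lost in each of the 8 fits without a library. Unadjusted p-values under 0.05 numbered 13 of 90 in torpor against summer active (14.4%, beside 16.0% of all tested genes), 16 in arousal against torpor (17.8%, beside 19.7%) and 12 in winter active against torpor (13.3%, beside 13.2%). They numbered 10 in winter active against summer active (11.1%, beside 14.8%), 20 in arousal against summer active (22.2%, beside 28.9%) and 4 in winter active against arousal (4.44%, beside 5.45%), so the shares lay close to or below those of all genes.

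Regulators of fat oxidation lay higher in arousal than in torpor for 11 of 12 genes tested, with a median log2 difference of 0.63 beside 0.109 over all genes. None passed, in a comparison where limma called 0 of all tested genes. Under the 3 other scalings 10 to 12 of the 12 lay higher and the median stood 0.45 to 0.53 above that of all genes. The list mixed activators with enzymes that hold fat oxidation back, so the count gives no direction for fat oxidation. Of the latter, ACACA was at 5.02 and 3.49 in arousal and 1.39 and 2.73 in torpor. ACACB was at 12.4 and 9.51 in arousal and 6.21 and 7.86 in torpor. FOXO3, a transcription factor restrained by insulin and known to act on PDK4 in other mammals (NCBI gene 117019600), was at 19.3 and 21.7 in arousal, against 2.97 and 6.21 in torpor (difference 2.00, SE 0.34, limma adjusted p = 0.142). It was at 11.1 and 14.1 in winter active and 5.49 and 8.08 in summer active, so arousal was the highest state. PPARG, the lipid-sensing receptor of fat cells and macrophages, was at 48.8 and 58.3 in torpor and 39.1 and 11.7 in summer active (difference 1.27, limma adjusted p = 0.284). Without summer active 1 its difference was 2.10. Macrophage markers summed to 14405 and 4479.9 in summer active and 19271 and 18179 in torpor, and their part in the PPARG difference was not tested. PPARA, the receptor that drives fat oxidation in liver, was low at 1.24 to 4.53, and the coactivator PPARGC1A was lower still at 0.141 to 0.996.

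Of 5 known PPAR targets tested other than the 10 genes, none passed in arousal against torpor, where limma called 0 of all tested genes. The absence of a call there thus says nothing particular about these targets. ANGPTL4, a lipase inhibitor that fasting induces, was at 60.3 and 50.2 in arousal and 91.5 and 61.6 in torpor.

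Enzymes that feed or complete the oxidation of fat were mixed. Of 13 other mitochondrial beta oxidation genes, 9 lay higher and 4 lower in torpor than in summer active, and 9 to 12 higher under the other scalings. Their median was 0.18 beside -0.055 over all genes, of which 45.1% lay higher. Limma called 0.561% of all tested genes there and none of the 13. The smallest p was that of HADH, the short-chain hydroxyacyl dehydrogenase, at 67.5 and 67.8 in torpor and 50.7 and 60.5 in summer active (difference 0.28, limma adjusted p = 0.483). ETFDH, which passes electrons from fat oxidation to the respiratory chain, was at 34.3 and 50.6 in arousal and 24.5 and 20.2 in torpor (difference 0.87, limma adjusted p = 0.216). ACAD9, an assembly factor of complex I related to ACADVL, averaged 31.0 ± 1.25 in winter active bats and 41.1 ± 2.88 in torpor bats (difference -0.40, limma adjusted p = 0.378).

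Acyl-CoA synthetases activate fatty acids before the shuttle. ACSL5 was at 136 and 123 in torpor bats, against 71.9 and 50.6 in summer active (log2 difference 1.09, SE 0.21, limma adjusted p = 0.0863), and without summer active 1 the difference was 1.34. ACSL1 was at 65.3 and 91.1 in arousal and 54.9 and 28.8 in torpor (difference 0.94, limma adjusted p = 0.21). CROT, which handles chains shortened in peroxisomes, was at 1.89 and 2.14 in torpor and 3.65 and 3.94 in summer active (difference -0.67, limma adjusted p = 0.247), and at 3.98 and 4.89 in arousal. All 9 peroxisomal genes tested lay higher in arousal than in torpor (median 0.54). All 9 lay lower in winter active than in arousal (median -0.46), and both directions held under every scaling tried. None passed on the deposited scale, where limma called 0 of all tested genes in both comparisons. Over all genes the medians were 0.109, with 58.03% above 0, and -0.037. Hepatocyte markers had the same directions, with 14 of 14 higher in arousal than in torpor (median 3.71) and 14 of 14 lower in winter active than in arousal (median -6.22), none of them passing. Their part in the peroxisomal differences was not tested. Among the 9, EHHADH, the bifunctional enzyme, was at 9.96 and 16.2 in arousal and 6.07 and 5.38 in torpor (difference 1.03, limma adjusted p = 0.172).

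Glycolysis genes did not pass in any comparison (0 of 19 tested). Over all tested genes limma called 5.52% in arousal against summer active and at most 1.03% in any other comparison. In torpor against summer active 11 of the 19 lay higher and 8 lower, beside 45.1% of all tested genes higher. Their median was 0.09 beside -0.055 over all tested genes, and under the other scalings 11 or 12 of the 19 lay higher. ALDOC, an aldolase best known from brain, came nearest, at 2.33 and 2.62 in torpor bats, against 8.64 and 11.0 in summer active (log2 difference -1.63, SE 0.27, limma adjusted p = 0.0596). Of 5 genes of ketone use none passed in any comparison, beside those same shares of all tested genes called. OXCT1, which activates ketones as fuel, stood at 65.5 and 64.3 in winter active and 34.9 and 60.3 in torpor (difference 0.49, limma adjusted p = 0.505).

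**Figure D5:**
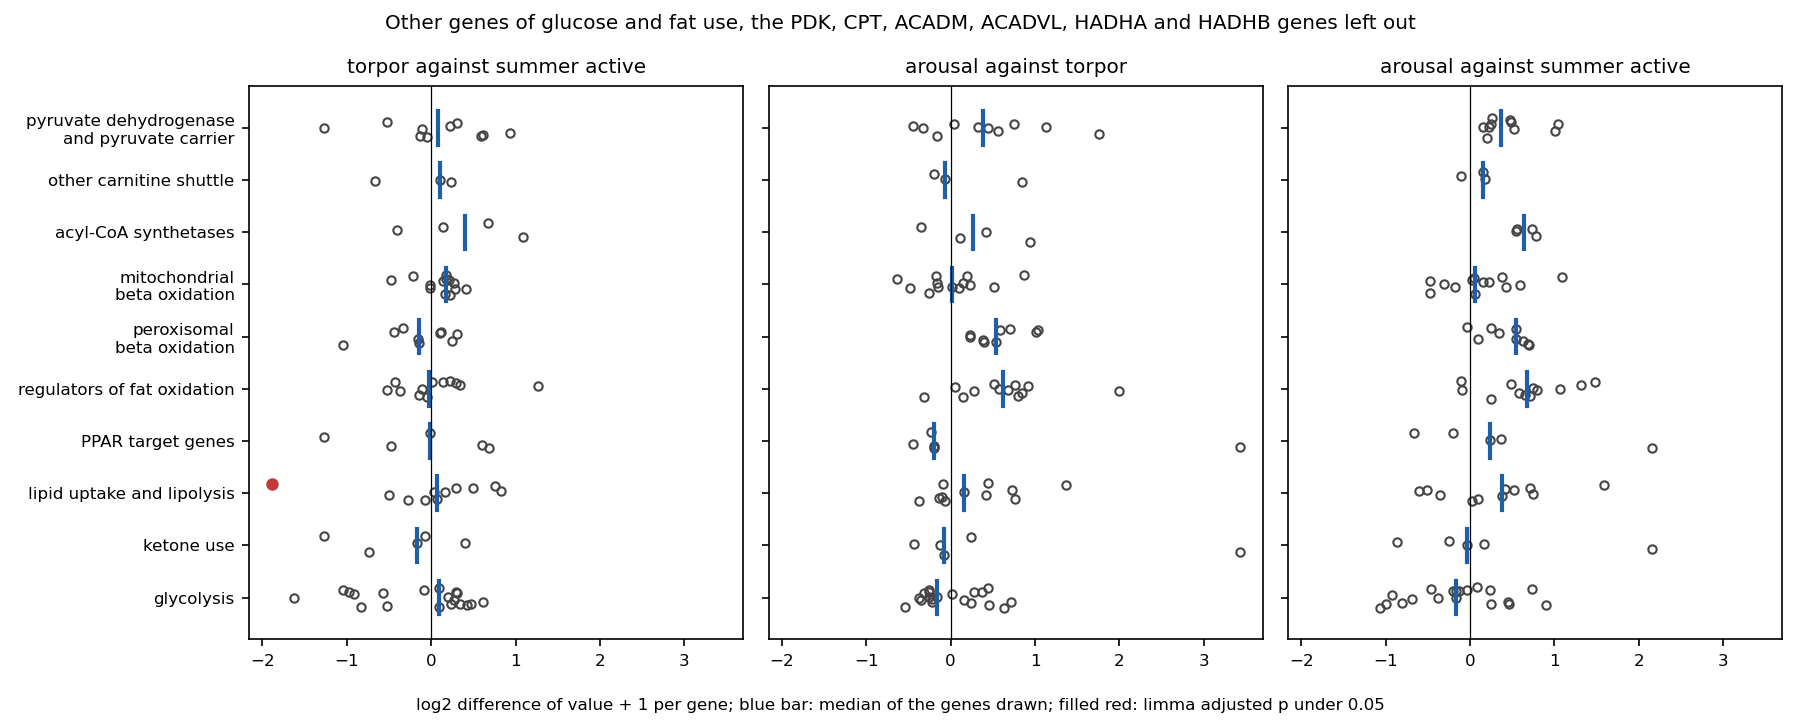
Log2 difference of value + 1 for each tested gene of the 10 lists (rows, with the PDK, CPT, ACADM, ACADVL, HADHA and HADHB genes left out) in 3 comparisons (panels), with the median of each list as a blue bar. The filled red point is MGLL at -1.89 in torpor against summer active, and regulators of fat oxidation have a median of 0.63 in arousal against torpor.

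The genes whose log2 levels most resembled PDK4 over the 8 libraries were OSBPL3, SPTY2D1, TTF1, TMEM185B and SIAE, with Pearson correlations of 0.991, 0.988, 0.987, 0.981 and 0.98. OSBPL3, an oxysterol-binding protein relative, was at 1.43 and 1.87 in summer active, 3.11 and 2.91 in torpor, 8.69 and 5.21 in arousal and 4.37 and 4.73 in winter active. For CPT1A they were NCEH1, UBE4A, BBX, YIPF6 and UEVLD, with correlations of 0.989 to 0.982. NCEH1, a cholesterol ester hydrolase of macrophages, was at 26.8 and 36.8 in summer active, 49.5 and 86.6 in torpor, 118 and 106 in arousal and 63.0 and 76.9 in winter active. Within the 10 genes, PDK4 correlated with CPT2 at 0.89, CPT1A at 0.87 and PDK2 at -0.44. All of these are descriptions over the same 8 libraries, which share their cells and their scaling.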

How the data were processed

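RNA from whole spleen was sequenced in 8 libraries, grouped by the state in their labels. Per the submitters' processing notes, kallisto 0.46.2 and sleuth 0.30.0 were used. Neither the reference transcripts nor the way they were summed per gene is stated in those notes or the labels. As deposited by the authors, the table holds 1 TPM signal per gene and library. Its columns sum to 745098 to 1331820, so the values are taken as rescaled between libraries, by a step that is not stated. Plain TPM had been assumed when the test was chosen, and limma was kept for this signal. Identifier and name of all 19652 genes were found in the RefSeq gene table of assembly mRhiFer1_v1.p, which served for names and neighbours only.

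Genes whose mean reached 1 were fitted by limma 3.58.1 (R 4.3.3; state means, eBayes with a trend) after taking log2(value + 1), all 8 libraries in 1 fit with 4 residual and 3.29 prior degrees of freedom. P-values were adjusted by Benjamini-Hochberg over 13542 genes. The fit was tested on simulated data. P-values set each difference against the spread between the 2 bats of a state, pooled over the 4 states and drawn towards the trend over all genes. Each library was left out in turn, the remaining replicate of its state being taken to vary as other states do. The other alternatives were robust eBayes, a replicate block, the 2 states alone, a pseudocount of 0.1, filters at a mean of 5 or none, and scaling by quantiles, by median ratios or to column totals of 1000000. For list genes all of these were chosen after seeing the data.

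The members, lists and tests were chosen with earlier results of these data known. All 10 members are named, and of each list the genes called, or else those with the smallest p in torpor against summer active, arousal against torpor and winter active against torpor. A gene that this rule names is not reported here. Other genes given with values were chosen for their role after the values were seen. For each of PDK4 and CPT1A the 5 genes most correlated with it are named.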

Additional observations from a re-analysis of the deposited data

How the results depend on the processing

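The 10 genes in 6 comparisons gave 60 differences, each refitted under 17 alternatives, and 948 of the 1020 values kept the direction and the side of the threshold. Just 1 of the 60 was called as reported, so nearly all of the 948 are differences that stayed uncalled. That count is therefore no measure of how firm a call is. The number of the 10 genes called in arousal against summer active, 1 as reported, was 2 with a mean of at least 5, 2 with robust eBayes and 2 with a replicate block (CPT1A joining at limma adjusted p = 0.0457, 0.0491 and 0.0409). It was 8 with columns set to totals of 1000000, 0 with the 2 states alone, and 0 to 1 in fits without a library. With those column totals it was also 1 in arousal against torpor and 1 in winter active against summer active, both PDK4. Setting column totals moves the median of all genes, which accounts by construction for part of the 8; for the other changes the cause was not tested. Deviations of same-numbered libraries correlated above 0.1 in 4 of 6 pairs of states (r from -0.19 to 0.32), not in all, so the replicate numbers were not taken to pair the libraries. Over all genes, arousal against summer active gave 323 higher and 425 lower calls as reported, 70 and 214 with no filter, 5833 and 266 with columns set to totals of 1000000, 0 and 27 with the 2 states alone, and 1 and 24 (without arousal 2) at the fewest. Those column totals gave 20 and 36 in torpor against summer active (10 and 66 as reported), 662 and 117 in winter active against summer active (19 and 121), and 441 and 4 in arousal against torpor (0 and 0), where 0.0456 was the smallest adjusted p. Among list genes, limma called PDHB in torpor against summer active (1.32, adjusted p = 0.0364) and PDP2 and FOXO3 in arousal against torpor (2.11 and 2.37, both adjusted p = 0.0456) with those totals; with the replicate block ALDOC passed (adjusted p = 0.047) and MGLL did not (0.0645). What depth limits is unknown without counts.

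Signs turned in 58 of the 1020 values, none of a difference above 0.50 in size as reported. With columns set to totals of 1000000 they turned in torpor against summer active for ACADVL (0.36) and HADHA (0.26), and in arousal against torpor for PDK3 (0.0083), ACADM (0.32), ACADVL (0.38) and HADHB (0.37). They turned in winter active against torpor for HADHA (0.15) and HADHB (0.0683), in winter active against summer active for PDK1 (0.22), PDK2 (0.31) and HADHA (0.40), in arousal against summer active for PDK1 (0.55), PDK2 (0.26) and ACADVL (0.74), and in winter active against arousal for ACADVL (-0.16). Under quantile normalization they turned in arousal against torpor for PDK1 (-0.037), ACADM (0.0855), ACADVL (0.20) and HADHB (0.21), in winter active against torpor for PDK1 (-0.0921), HADHA (0.089) and HADHB (0.0506), and for ACADVL in arousal against summer active (0.16) and also in winter active against arousal (-0.001). Under median-of-ratios rescaling they turned in winter active against torpor for PDK1 (-0.0083), CPT1A (-0.0322) and ACADVL (-0.0785), in winter active against summer active for ACADVL (-0.0327) and HADHB (-0.0173), in torpor against summer active for ACADVL (0.0457) and in arousal against summer active for HADHA (-0.0214).

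Fits without a library spanned 0 in 20 of the differences. In torpor against summer active these were CPT2 (-0.0888 to 0.18) and ACADVL (-0.18 to 0.13). In arousal against torpor they were ACADM (-0.23 to 0.11), ACADVL (-0.0583 to 0.0536) and HADHB (-0.0632 to 0.0382). For winter active against torpor they were PDK1 (-0.0881 to 0.29), CPT1A (-0.29 to 0.45), ACADM (-0.63 to 0.084) and HADHA (-0.0811 to 0.0226). For winter active against summer active they were PDK1 (-0.67 to 0.0553), ACADM (-0.12 to 0.60), ACADVL (-0.14 to 0.17) and HADHB (-0.026 to 0.0794). In arousal against summer active they were PDK1 (-0.54 to 0.19), ACADVL (-0.18 to 0.13) and HADHA (-0.0699 to 0.14). In winter active against arousal they were PDK1 (-0.32 to 0.0541), PDK3 (-0.29 to 0.0804), ACADM (-0.58 to 0.14) and ACADVL (-0.016 to 0.0958).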
